A study of Mus musculus with 3 samples.

Results

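The genes described here build the entrance of the secretory pathway: the machinery that carries new proteins into the endoplasmic reticulum (ER), folds them there, and packs them into coated vesicles that run between the ER and the Golgi. Members were every gene on the mouse array whose name is that of a signal recognition particle protein (Srp), a Sec protein, a translocon-associated protein (Ssr), a signal peptidase subunit (Spcs), a protein disulfide isomerase (Pdia2 to Pdia6), a coatomer subunit (Cop), a p24 cargo receptor (Tmed), a Sar1 GTPase or a KDEL receptor (Kdelr). The names alone chose them, and no measured value did. They were 67 of 21589 genes on the array, read by 128 of 41174 probes. A further check of the names put 6 genes aside as matched by name alone: *Sec1*, *Sec14l1*, *Sec14l2*, *Sec14l3*, *Sec14l4* and the antisense RNA *Copg2as2*.

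The samples were choroid plexus epithelium (CPE) from 3 healthy adult C57BL/6 mice. This cell layer covers the choroid plexus and makes the cerebrospinal fluid. The epithelial cells were cut out of 20 µm brain cryosections by laser, and their RNA was amplified and labelled red (Cy5). On all 3 arrays the green channel (Cy3) held 1 and the same RNA as reference, taken from C57BL/6 retinal pigment epithelium (RPE) and choroid. The dyes were not swapped, so any preference of a probe for a dye stays in its ratio, and the biological spread of the reference is not part of any error given here. All values are for bulk RNA, in which fewer cells of a type and less RNA per cell cannot be told apart.

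The label of the tissue was checked on marker genes. Of 11 tested CPE markers, among them the transthyretin gene *Ttr*, 10 were higher in the CPE, and 7 of 8 markers of RPE and melanocytes were lower, while *Tyr* was near background in all CPE samples. The summed level of the RPE markers was 3438 to 4773 intensity units in the CPE and 207900 to 220500 in the reference. Lower in the CPE were also all 6 markers of photoreceptors, all 5 of stroma, all 3 of red blood cells, 3 of 4 of macrophages and 3 of 4 of neurons, while none of 4 of endothelium was called in either direction. Of 3 astrocyte markers 1 was higher and 1 lower, and of 2 tested oligodendrocyte markers 1 was higher. In the other direction 2 of 3 ependymal markers were higher in the CPE, with a summed level of 4626 to 9963 against 667.4 to 956.1 in the reference. None of 3 tested markers of plasma cells, which carry very large amounts of ER, was called, and their median log2 ratio was 0.03. The part of these cells in the results below was not tested. Probes well above background made up 46.0% to 85.6% of the array in the CPE channel and 68.6% to 84.2% in the reference channel, lowest in mouse 2 and highest in mouse 3 in both.

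Proteins bound for secretion or for membranes carry a signal sequence that the signal recognition particle binds as it leaves the ribosome. The particle docks the ribosome at the ER, the Sec61 channel threads the chain across the membrane, signal peptidase removes the signal, and disulfide isomerases and chaperones fold the product. COPII coats then bud vesicles toward the Golgi, COPI coats return vesicles to the ER, and KDEL receptors bring escaped ER residents back with them. The CPE is a secretory epithelium, known for its release of transthyretin into the cerebrospinal fluid.

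Most of these genes were highly expressed in the CPE, and few differed from the reference after loess normalization. Expression was placed in classes by the rank of a probe among all probes in the CPE channel: high for a percentile over 90, moderate for 50 to 90, low for 10 to 50 and very low for less. A class ranks the signal of a probe and does not order genes by transcript number. By the brightest probe of each gene, 42 of 67 genes (62.7%) were high, 20 were moderate, 5 were low and 0 were very low. Over all genes on the array, 15.7% were high by the same rule. Of single probes, 50 of 128 (39.1%) were high, against 10% of all probes, and 44 of these 50 were high in every mouse. The 5 low genes were *Pdia2*, *Sec31b*, *Tmed6*, *Sec1* and *Sec14l3*, and the brightest probe of each missed the threshold over background on some array in both channels.

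**Figure D1:**
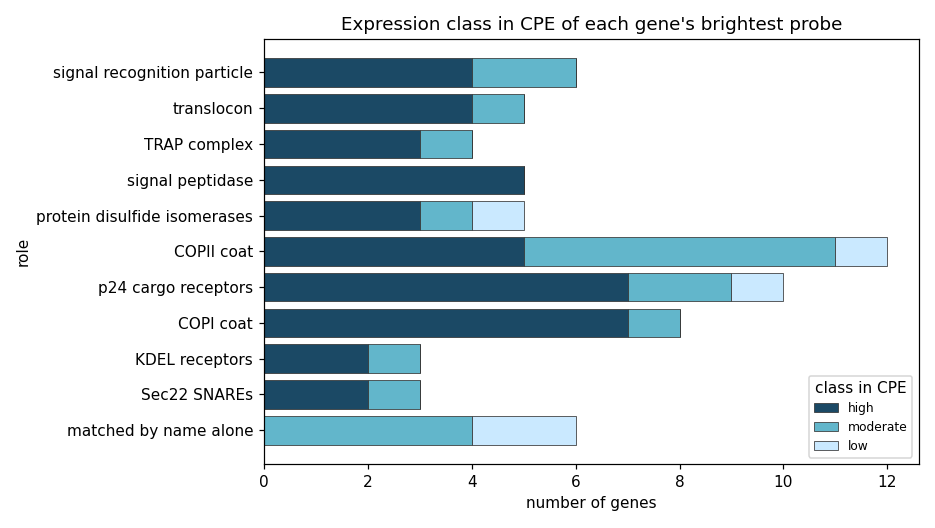
Number of genes (horizontal axis) in each expression class in the CPE, by the brightest probe of each gene, for each role (vertical axis). All 5 signal peptidase genes and 7 of 8 COPI genes were in the high class, against 5 of 12 COPII genes.

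The ratio of CPE over reference was tested for 111 of the 128 probes (86.7%), against 62.8% of all probes. These were probes whose signal stood well above background on every array, in 1 channel or both. A probe was called at an adjusted p under 0.05 and a difference of at least 2-fold, from limma with Benjamini-Hochberg adjustment over 25847 probes. Of the member probes, 5 were called higher in the CPE (4.5%, against 7.09% of all tested probes) and 3 lower (2.7%, against 10.2%). By the brightest probe, 4 of 62 tested genes were higher (*Pdia3*, *Pdia4*, *Tmed10* and *Sec14l4*), where 8.9% of all tested genes were, and 2 were lower (*Pdia5* and *Tmed8*), where 11.3% were. Differences of any size passed the adjusted p at 37 member probes. Of these, 26 were higher in the CPE (16.9% of all tested probes were) and 11 were lower (22.3% were). The 95% interval of the ratio lay wholly within 2-fold in both directions at 79 of 111 member probes (71.2%), against 64.1% of all tested probes. The median log2 ratio was 0.07 for the members and -0.04 for all probes.

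**Figure D2:**
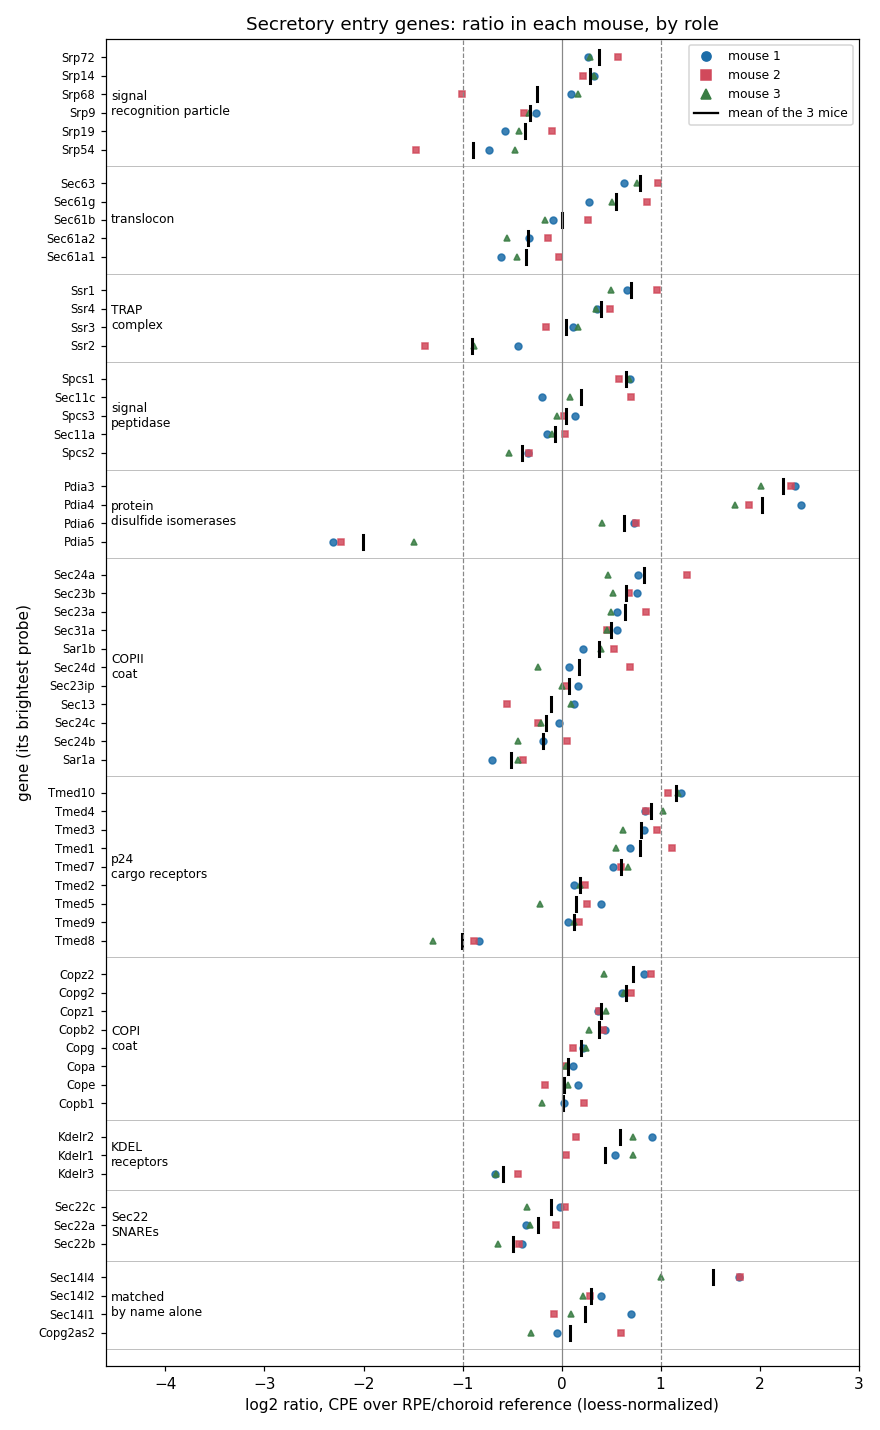
Log2 ratio of CPE over reference after loess (horizontal axis) in each mouse, for the brightest probe of each of the 62 tested genes (vertical axis), grouped by role; symbols are the mice, black bars their means, and dashed lines a 2-fold difference. Only *Pdia3*, *Pdia4*, *Tmed10* and *Sec14l4* have their mean to the right of the upper dashed line, and *Pdia5* and *Tmed8* to the left of the lower one.

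How near to 0 these genes lay depended on the normalization. Loess sets the probes of 1 brightness to a ratio of about 0 on each array, and of the 128 member probes 50 were in the high and 52 in the moderate class. With each array only centred on its median, the median of the members was 0.54 and that of all tested probes 0.09, and 34 member probes were called higher (30.6%, against 14.5% of all) and 2 lower (1.80%, against 7.13%). Over all probes the share of higher among called probes then moved from 41.1% to 67.0%. The shift was uneven between arrays: the median of the members in mice 1, 2 and 3 was 1.12, 0.79 and 0.07 after centring, and 0.17, 0.06 and 0.06 after loess. By their brightest probes, 28 of 62 genes were called higher and 1 lower after centring, and 13 turned from a negative to a positive ratio. Directions below are those after loess. Where centring changed the call or sign of a named gene's brightest probe, its centred value stands with its role group or the partners.

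**Figure D3:**
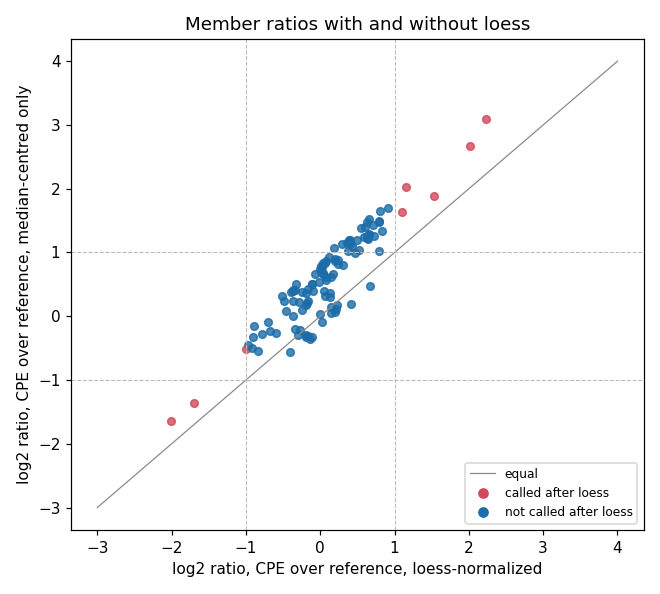
Mean log2 ratio of CPE over reference of the 111 tested member probes after loess (horizontal axis) and after median centring alone (vertical axis), with the line of equal values; dashed lines mark a 2-fold difference. Most points lie above the line, and 34 probes are called higher after centring against 5 after loess.

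The protein disulfide isomerases stood farthest from the reference, in both directions. These enzymes form and reshuffle disulfide bonds in the ER lumen. *Pdia3*, also known as ERp57, which works on glycoproteins together with calnexin and calreticulin, and *Pdia4*, also known as ERp72, were about 4-fold higher in the CPE, and *Pdia5* was about 4-fold lower. The *Pdia3* probe (mm8, chr2:121129247-121129307) had a log2 ratio of 2.36, 2.32 and 2.01 in mice 1, 2 and 3. It ranked at percentile 99.6 in the CPE, and its mean was 2.23 ± 0.16 (SE, n = 3), or 4.70-fold (limma, adjusted p = 5.73e-05). The CPE channel lay between 14.12 and 14.40 on the log2 scale and the reference between 12.03 and 12.11, with no overlap.

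The *Pdia4* probe (chr6:47726103-47726162) had log2 ratios of 2.42, 1.89 and 1.76, with a mean of 2.02 ± 0.18 (SE, n = 3; limma, adjusted p = 0.000162). The lowest CPE level of *Pdia4* was 11.72 and the highest reference level 10.06. For *Pdia5* (chr16:35327381-35327440) the log2 ratios were -2.30, -2.23 and -1.49, with a mean of -2.01 ± 0.20 (SE, n = 3; limma, adjusted p = 0.000276). All 3 CPE levels of *Pdia5*, from 7.54 to 8.25, lay below all 3 reference levels, from 9.74 to 10.02. These 3 genes kept their call in all 12 alternative settings. Their means ran from 2.17 to 3.09 for *Pdia3*, 1.82 to 2.68 for *Pdia4* and -2.43 to -1.64 for *Pdia5*. Each of the 3 genes was read by 1 probe, so agreement between probes could not be examined. *Pdia5* was also in a lower class, moderate at percentile 64.1, where *Pdia4* was high at 96.5.

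*Pdia6*, an isomerase also known as P5, depended on the probe. Its brightest probe (chr12:17309637-17309696, percentile 98.9) had log2 ratios of 0.73, 0.75 and 0.41, with a mean of 0.63 ± 0.16 (SE, n = 3; limma, adjusted p = 0.0168), short of 2-fold. With median centring it was called, at 1.47. A more 3′ probe (chr12:17309997-17310056) was called at 1.10 ± 0.23 (SE, n = 3; limma, adjusted p = 0.00839), with 1.52, 1.37 and 0.40 in the 3 mice. That call was lost without mouse 1 (0.88) and without mouse 2 (0.96). The other probes of the gene had means of -0.17 and -0.36, and the second of these read 0.55, -2.07 and 0.43, so that mouse 2 alone set its sign. *Pdia2*, the pancreatic isomerase, was well above background on 1 array only in either channel and was not tested.

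**Figure D4:**
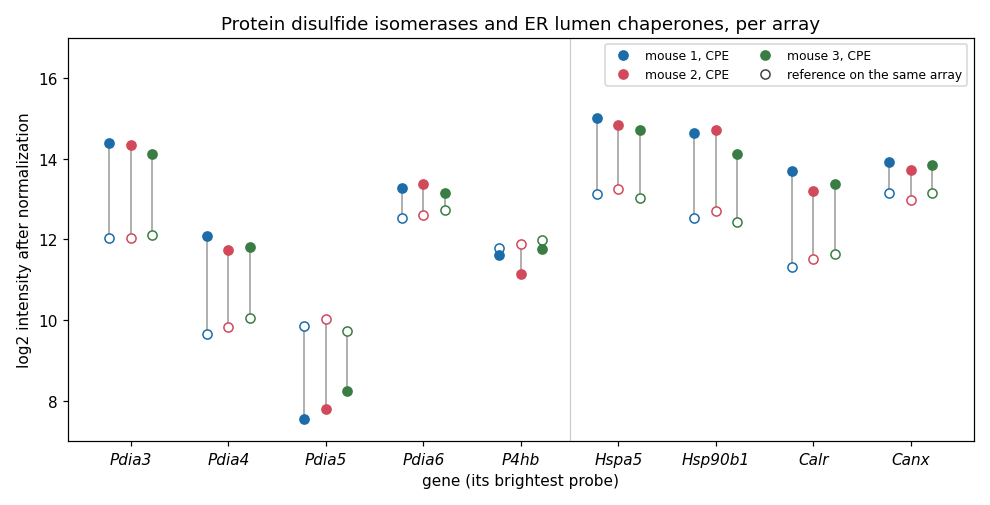
Log2 intensity after normalization (vertical axis) in the CPE (filled circles) and in the reference on the same array (open circles) for 4 protein disulfide isomerases, *P4hb* and 4 ER chaperones, by mouse. At the brightest probes of *Pdia3*, *Pdia4*, *Hspa5*, *Hsp90b1* and *Calr* every CPE value is above every reference value, and in *Pdia5* all are below.

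The promoters of the isomerases are printed because these genes moved in opposite directions and because ER chaperone genes are known to share a promoter motif, the ER stress element, which is bound when unfolded protein accumulates. The element was searched as CCAAT, any 9 bases and CCACG, and a second motif, the core of the unfolded protein response element, as TGACGTG, both on either strand, in RefSeq promoters (GRCm38.p6, 250 bases before to 50 after the start site). The CCACG end of the element shares letters with the reverse of the core, so 1 stretch could match both. Of the members, 56 of 67 were matched. The lines give the 250 bases before each start site, 5′ to 3′ on the strand of the gene, with a matched ER stress element or core in capitals (in *Calr*, and in the second match of *Hsp90b1*, the element runs on the opposite strand).
*Pdia3*: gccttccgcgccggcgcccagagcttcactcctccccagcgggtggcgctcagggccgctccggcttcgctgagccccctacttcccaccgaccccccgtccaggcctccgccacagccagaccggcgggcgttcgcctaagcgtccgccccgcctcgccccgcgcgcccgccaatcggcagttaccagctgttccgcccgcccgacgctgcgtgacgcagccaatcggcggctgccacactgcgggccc
*Pdia4*: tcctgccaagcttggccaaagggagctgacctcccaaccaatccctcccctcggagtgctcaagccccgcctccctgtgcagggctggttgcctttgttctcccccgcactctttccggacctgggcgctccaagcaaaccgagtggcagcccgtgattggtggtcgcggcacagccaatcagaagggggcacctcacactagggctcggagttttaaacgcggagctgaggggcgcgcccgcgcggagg
*Pdia5*: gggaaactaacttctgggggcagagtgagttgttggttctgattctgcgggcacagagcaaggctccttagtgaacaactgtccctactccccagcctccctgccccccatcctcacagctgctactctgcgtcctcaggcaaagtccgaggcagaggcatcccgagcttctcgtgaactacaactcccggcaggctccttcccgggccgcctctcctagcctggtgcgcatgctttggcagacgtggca
*Pdia6*: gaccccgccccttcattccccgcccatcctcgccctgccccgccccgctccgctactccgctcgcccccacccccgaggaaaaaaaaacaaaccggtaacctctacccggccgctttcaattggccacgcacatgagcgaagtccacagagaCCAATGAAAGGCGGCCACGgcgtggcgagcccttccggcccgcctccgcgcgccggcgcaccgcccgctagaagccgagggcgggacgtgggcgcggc
*Hspa5*: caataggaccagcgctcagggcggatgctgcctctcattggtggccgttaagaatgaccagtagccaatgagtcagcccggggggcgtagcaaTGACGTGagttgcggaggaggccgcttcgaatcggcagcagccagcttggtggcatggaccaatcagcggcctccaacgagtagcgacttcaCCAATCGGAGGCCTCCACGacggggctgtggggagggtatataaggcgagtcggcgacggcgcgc
*Hsp90b1*: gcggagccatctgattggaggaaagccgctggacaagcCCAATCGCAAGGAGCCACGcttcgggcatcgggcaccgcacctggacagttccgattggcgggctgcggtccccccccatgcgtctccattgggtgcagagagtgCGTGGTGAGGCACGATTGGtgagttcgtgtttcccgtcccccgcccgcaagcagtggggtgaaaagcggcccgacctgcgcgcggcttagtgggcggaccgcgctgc
*Calr*: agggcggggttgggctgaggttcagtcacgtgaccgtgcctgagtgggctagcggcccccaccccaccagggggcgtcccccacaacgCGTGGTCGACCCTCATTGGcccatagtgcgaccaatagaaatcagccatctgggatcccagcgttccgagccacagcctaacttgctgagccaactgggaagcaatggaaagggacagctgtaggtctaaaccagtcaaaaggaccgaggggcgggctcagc

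These windows are chr2:121413652-121413901 (plus strand) for *Pdia3*, chr6:47813513-47813762 (minus strand) for *Pdia4*, chr16:35490874-35491123 (minus strand) for *Pdia5*, chr12:17266339-17266588 (plus strand) for *Pdia6*, chr2:34771840-34772089 (plus strand) for *Hspa5*, chr10:86705445-86705694 (minus strand) for *Hsp90b1* and chr8:84846932-84847181 (minus strand) for *Calr*. A full ER stress element was in 1 of the 56 member promoters (1.79%), that of *Pdia6*, from base 98 to base 80 before the start site. It was in 37 of 27025 genes of the whole table (0.137%). *Pdia3* and *Pdia4*, the members with the largest ratios, held no full match. *Pdia3* had 2 copies of CCAAT and none of CCACG in the printed window, and *Pdia4* 3 and none. The search took exact letters only. In both windows a CCAAT was followed after 9 bases by CCAC with another last base than G, in *Pdia4* on the opposite strand. How often such near matches occur over all genes was not counted. *Pdia5* had none of CCAAT and 1 of CCACG. The TGACGTG core was in 5 member promoters (8.93%, against 2.22% of all genes): *Copb1*, *Copb2*, *Kdelr3*, *Sec23a* and *Sec24d*, none of which was called after loess. Among the 48 matched partner genes described next, the ER stress element was in 4 (8.33%), *Hspa5*, *Hsp90b1*, *Calr* and *Canx*, with 2 copies in *Hsp90b1*, and the core in 7 (14.6%), *Hspa5* among them. A match of letters is a description, and no binding was measured here.

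Other genes of the pathway were taken from a list of 60, of which 55 were on the array by name and 54 were tested by their brightest probe. Higher in the CPE were 10 (8.9% of all tested genes were) and lower 1 (11.3% were), and the median log2 ratio was 0.33. The largest ratios were those of the ER lumen chaperones. *Calr*, encoding calreticulin, read 2.39, 1.69 and 1.74, with a mean of 1.94 ± 0.19 (SE, n = 3; limma, adjusted p = 0.000237). *Hsp90b1*, encoding the ER form of Hsp90, read 2.10, 2.00 and 1.69, with a mean of 1.93 ± 0.16 (SE, n = 3; limma, adjusted p = 0.000119). *Hspa5*, encoding BiP, the main Hsp70 of the ER, read 1.87, 1.58 and 1.69, with a mean of 1.71 ± 0.15 (SE, n = 3; limma, adjusted p = 0.000165).

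At the brightest probes of all 3 chaperone genes every CPE value lay above every reference value. A second, more 5′ probe of *Hsp90b1* read 1.58, -0.92 and 0.48 and was not called, and that of *Calr* read 3.04, 0.17 and 1.30 and was called. *Canx*, encoding calnexin, the membrane partner of *Pdia3*, had 0.73 at its brightest probe, 1.40 at another, which was called, and -0.20 at its most 5′ probe. *P4hb*, the founding member of the isomerase family, read -0.18, -0.73 and -0.24. Its mean was -0.38 ± 0.17 (SE, n = 3; limma, adjusted p = 0.119), with a 95% interval from -0.79 to 0.02. With median centring *Canx* was called at its brightest probe, at 1.60, and *P4hb* turned to 0.35.

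The other partners that were higher, named here after their values were seen, were *Ergic3*, *Arf4*, *Trappc3*, *Gbf1*, *Stx18*, *Ergic1* and *Yif1b*, with means from 1.52 for *Ergic3* down to 1.01 for *Yif1b*, which was not called without mouse 2 (0.98) or without mouse 3 (0.99). *Arf4* is a small GTPase and *Gbf1* an exchange factor for Arf proteins, which recruit the COPI coat. *Ergic1* and *Ergic3* are membrane proteins of the compartment between ER and Golgi. *Ergic3* read 2.03, 0.44 and 2.09, so mouse 2 stood apart. Other probes of these genes were not called, at 0.66 for *Trappc3*, 0.17 for *Gbf1*, and 0.32 and -0.04 for *Ergic1*. In 3 partners a probe other than the brightest was called: *Rab1b* (1.06, against 0.50), *Srprb* (1.00, against 0.85) and *Stt3b* (-1.15, against -0.33). At their brightest probes, median centring called *Rab1b* (1.19) and *Srprb* (1.25) higher and turned *Stt3b* to 0.32. *Trappc1*, a subunit of the TRAPP tethering complex like *Trappc3*, read -1.05, -1.21 and -1.16, with a mean of -1.14 ± 0.15 (SE, n = 3; limma, adjusted p = 0.000992), and lost its call with median centring, at -0.55.

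Ahead of folding come targeting and entry. The 6 signal recognition particle genes had 11 tested probes with a median log2 ratio of -0.36, which was 0.10 with median centring. *Srp14*, *Srp9*, *Srp72* and *Srp54* were high and *Srp19* and *Srp68* moderate in the CPE. *Srp54*, the GTPase that binds the signal sequence, was the lowest of them. Its brightest probe (chr12:56029250-56029309) read -0.73, -1.47 and -0.48, with a mean of -0.89 ± 0.21 (SE, n = 3; limma, adjusted p = 0.0137), short of 2-fold. Without mouse 3 it passed, at -1.10. A more 5′ probe (chr12:56007399-56008314) read -1.92, -2.64 and -0.55 and was called lower at -1.70 ± 0.35 (SE, n = 3; limma, adjusted p = 0.0072). The mouse genome holds further copies, *Srp54b* and *Srp54c*, beside *Srp54a*, the current name of this gene, and which copies these probes read was not tested.

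*Srp72* showed both signs at its probes. The brightest, at the 3′ end, read 0.27, 0.57 and 0.29, and the most 5′ probe -0.34, -2.29 and -0.28, so that the mean of -0.97 at the latter came from mouse 2. Without mouse 1 this 5′ probe was called lower, at -1.29. *Srp68* was the member of this group nearest 0, at -0.25, with 0.10, -1.01 and 0.17 in the 3 mice, and without mouse 2 its mean was 0.13. *Srp9* and *Srp14* form the part of the particle that pauses translation, and *Srp9* was at -0.32 (95% interval -0.67 to 0.03) and *Srp14* at 0.29 (-0.06 to 0.64). With median centring *Srp14* (1.13) and the brightest probe of *Srp72* (1.02) were called higher, and *Srp9* (0.50), *Srp19* (0.25) and *Srp68* (0.10) turned positive.

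None of the 10 tested translocon probes was called after loess, and 3 were called higher with median centring. *Sec61b*, the beta subunit of the channel, was nearest 0, at -0.08, 0.26 and -0.16, with a mean of 0.01 and a 95% interval from -0.37 to 0.38. *Sec61g*, the gamma subunit, read 0.28, 0.86 and 0.51, with a mean of 0.55 ± 0.17 (SE, n = 3; limma, adjusted p = 0.0374). It was called with median centring, at 1.38.

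The channel-forming alpha subunit *Sec61a1* read -0.61, -0.03 and -0.45 at its brightest probe, a mean of -0.36, and 0.46 and 0.19 at its others. With median centring the brightest turned to 0.40. Its paralog *Sec61a2* read -0.33, -0.14 and -0.55 and was in the moderate class at percentile 58.4, where *Sec61a1*, *Sec61b* and *Sec61g* were high. *Sec63*, which helps to open the channel, was at 0.79 ± 0.16 (SE, n = 3; limma, adjusted p = 0.00627) at its brightest probe and at 0.52, 0.05 and -0.41 at its others. The brightest and the 0.52 probe were called higher with median centring, at 1.47 and 1.04, and the last was called lower with the scanner's own ratio, at -1.30.

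In the TRAP complex, which sits beside the channel, *Ssr1* (0.70), *Ssr4* (0.40) and *Ssr3* (0.04) were high and *Ssr2* was moderate. *Ssr3*, nearest 0, read 0.11, -0.16 and 0.16, while another of its probes read -0.76, -1.11 and -0.49. *Ssr2* had the lowest ratio of the group, with -0.43, -1.38 and -0.89 and a mean of -0.90 ± 0.20 (SE, n = 3; limma, adjusted p = 0.011), and without mouse 1 it was called, at -1.13. With median centring *Ssr1* (1.43) and *Ssr4* (1.20) were called higher.

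All 5 signal peptidase genes were high, and none was called after loess. *Spcs3* was nearest 0, at 0.14, 0.03 and -0.05, with a 95% interval from -0.31 to 0.39. The catalytic subunits *Sec11a* and *Sec11c* were at -0.07 and 0.20, and another probe of *Sec11a* at 0.04. *Spcs1* had the largest ratio, 0.65 ± 0.15 (SE, n = 3; limma, adjusted p = 0.0114), with 0.69, 0.58 and 0.68 in the 3 mice, and *Spcs2* the lowest, -0.40. With median centring *Spcs1* was called higher, at 1.53, and *Spcs2* (0.38) and *Sec11a* (0.66) turned positive.

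Of the vesicle coats, neither COPII nor COPI had a called probe after loess, while median centring called 6 of 19 COPII probes and 6 of 15 COPI probes higher. The Sar1 GTPase starts the COPII coat, Sec23 and Sec24 proteins form its inner layer, and Sec13 and Sec31 proteins its outer layer. The COPII genes had 19 tested probes with a median of -0.09, or 0.43 with median centring. By the brightest probes of the 11 tested COPII genes the median after loess was 0.18, so its sign depended on which probes were counted. *Sar1b* was at 0.38 (95% interval 0.02 to 0.74) and *Sar1a* at -0.51 (-0.88 to -0.15), intervals that did not overlap. A second probe of *Sar1a*, at -0.09 (-0.48 to 0.30), had an interval that did overlap that of *Sar1b*. With median centring *Sar1b* was called, at 1.19, and the brightest probe of *Sar1a* turned to 0.32. *Sec24a*, the cargo adaptor with the largest ratio, read 0.77, 1.27 and 0.46, with a mean of 0.83 ± 0.19 (SE, n = 3; limma, adjusted p = 0.0114), and was called without mouse 3, at 1.02, and with the scanner's own ratio, at 1.06. Its other probes were at 0.22 and -0.11. *Sec24b*, *Sec24c* and *Sec24d* were at -0.19, -0.16 and 0.18. *Sec23a* and *Sec23b* were at 0.64 and 0.65, and *Sec31a* at 0.50, while another probe of *Sec23a* was at -0.31. With median centring *Sec24a* (1.34), *Sec23a* (1.21), *Sec23b* (1.27) and *Sec31a* (1.20) were called higher, and *Sec24b* (0.37) and *Sec24c* (0.43) turned positive, as did *Sec13*, from -0.11 to 0.51. *Sec23ip*, nearest 0, read 0.17, 0.04 and 0.01, and its other probe was at -0.27. *Sec24d* varied more between mice, at 0.07, 0.69 and -0.23, and *Sec31b*, the paralog of *Sec31a*, was not tested.

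The 8 COPI genes had 15 tested probes with a median of 0.21, or 0.84 with median centring. Their brightest probes ran from 0.02 for *Copb1* and *Cope* to 0.65 for *Copg2* and 0.72 for *Copz2*. *Copb1*, nearest 0, read 0.02, 0.23 and -0.20, with a 95% interval from -0.36 to 0.39. The gamma and zeta subunits have paralogs, and *Copg2* (95% interval 0.30 to 1.00) and *Copg*, now named *Copg1* (-0.15 to 0.54), had intervals that overlapped. *Copg* had higher means at its other probes, 0.79 and 0.67, and the first of these was called without mouse 3, at 1.15. *Copz2* was the COPI gene in the moderate class, at percentile 84.4. Probes of opposite sign were at -0.20 for *Copg2* and -0.19 for *Copz2*. With median centring *Copg2* (1.29), *Copz2* (1.26), *Copb2* (1.17) and *Copz1* (1.14) were called higher at their brightest probes.

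The genes named Tmed, grouped here by name as p24 proteins, cargo receptors that travel in both coats, held 1 call in each direction. *Tmed10*, a receptor for cargo that leaves the ER, read 1.20, 1.08 and 1.18 at its brightest probe (chr12:86231956-86232015), which ranked at percentile 99.5. The mean was 1.16 ± 0.15 (SE, n = 3; limma, adjusted p = 0.000913), or 2.23-fold. The mice read alike, but a more 3′ probe of *Tmed10* (chr12:86229759-86229818) read 0.13, 0.05 and 0.04, a mean of 0.07 with a 95% interval from -0.27 to 0.42. *Tmed8* read -0.83, -0.89 and -1.30, with a mean of -1.01 ± 0.17 (SE, n = 3; limma, adjusted p = 0.0028), and this call, at the edge of 2-fold, was lost in 5 of 12 alternative settings. Without mouse 3 its mean was -0.86, and with median centring -0.51.

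Of the other p24 genes, *Tmed4* (0.91), *Tmed3* (0.80), *Tmed1* (0.79) and *Tmed7* (0.60) had an adjusted p under 0.05 and fell short of 2-fold. With median centring these were called higher, at 1.70, 1.66, 1.49 and 1.40, as was *Tmed2*, at 1.07. Another probe of *Tmed7* was at -0.28. *Tmed9*, nearest 0, read 0.07, 0.18 and 0.12. *Tmed2* was at 0.18 at its brightest probe and at -0.92 at its most 5′ probe, where the mice read -0.40, -2.17 and -0.19. *Tmed6* was too dim to be tested.

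The KDEL receptors, which bind the retrieval signal of ER residents such as the products of *Hspa5*, *Hsp90b1* and *Calr*, were not called after loess. *Kdelr1* read 0.54, 0.04 and 0.72, with a mean of 0.43 ± 0.18 (SE, n = 3; limma, adjusted p = 0.0949). *Kdelr2* read 0.91, 0.15 and 0.72, with a mean of 0.59 ± 0.19 (SE, n = 3; limma, adjusted p = 0.0402), and -0.02 at a second probe. *Kdelr3* was on the other side, at -0.68, -0.44 and -0.67, with a mean of -0.60 ± 0.15 (SE, n = 3; limma, adjusted p = 0.018). At the brightest probes the interval of *Kdelr3* (-0.95 to -0.24) did not overlap those of *Kdelr1* (0.01 to 0.86) and *Kdelr2* (0.15 to 1.03). It did overlap that of the second *Kdelr2* probe (-0.59 to 0.55). *Kdelr1* and *Kdelr2* were in the high class, at percentile 94.5 each, and *Kdelr3* in the moderate class at 70.3. With median centring *Kdelr1* (1.10) and *Kdelr2* (1.25) were called higher and *Kdelr3* was at -0.27.

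The genes named Sec22 were grouped here by name as SNAREs, membrane fusion proteins of vesicles between ER and Golgi. They had a median log2 ratio of -0.21 over 8 tested probes, or 0.22 with median centring. *Sec22b* was at -0.49 and, at a second probe, at -0.70, and read alike in all mice. *Sec22c*, nearest 0, read -0.02, 0.03 and -0.34, and *Sec22a* was at -0.24, with -0.83 at its probe with the lowest ratio. Other probes of *Sec22c* were at 0.07 and 0.02. At their brightest probes all 3 genes turned positive with median centring, *Sec22b* to 0.23, *Sec22c* to 0.51 and *Sec22a* to 0.38.

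Among the genes matched by name alone, *Sec14l4*, a lipid-binding protein of the Sec14 family with no part in these coats, was called higher at 1.79, 1.80 and 1.00, with a mean of 1.53 ± 0.20 (SE, n = 3; limma, adjusted p = 0.001). *Copg2as2*, nearest 0 at 0.08, read -0.04, 0.60 and -0.31. *Sec14l1* was at 0.24 at its brightest probe and at 0.15 and -0.01 at its others.

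After loess the mice differed little at most members. The median SD of the log2 ratio over the 3 mice was 0.22 for the member probes and 0.26 for all tested probes. With median centring the mice stood farther apart, with member medians of 1.12, 0.79 and 0.07 in mice 1, 2 and 3. The values below are those after loess. By the brightest probe, the 5 genes with the largest SD were *Srp68*, *Srp54*, *Ssr2*, *Sec24d* and *Copg2as2*, whose values are given above. Mouse 2 was the one farthest from the others at 52 of 111 member probes (46.8%, against 32.5% of all tested probes). It lay at least 1 log2 unit below the mean of the others at 8 member probes (7.21%, against 3.00% of all). Mouse 1 did so at 0 and mouse 3 at 3.

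Mouse 2 read lower toward the 5′ end of transcripts. In 31 member genes the outermost tested probes were at least 100 bases apart on the genome, and in 27 of them (87.1%) the deviation of mouse 2 from the mean of mice 1 and 3 was lower at the 5′ than at the 3′ probe. Over all such genes on the array this was so in 3961 of 5465 (72.5%). The median difference, 5′ minus 3′, was -0.37 in the members and -0.29 in all genes. It lay in the CPE channel, with a median of -0.54 in the members, and was -0.04 in the reference channel. The difference reached 1 log2 unit in 3 of the 31 members, *Pdia6* (-2.96), *Srp72* (-2.27) and *Tmed2* (-1.95). Over the array it did so in 687 of 5465 genes, of which 615 were lower at the 5′ probe. The clearest exception among the members was *Sec23a*, at 0.98.

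**Figure D5:**
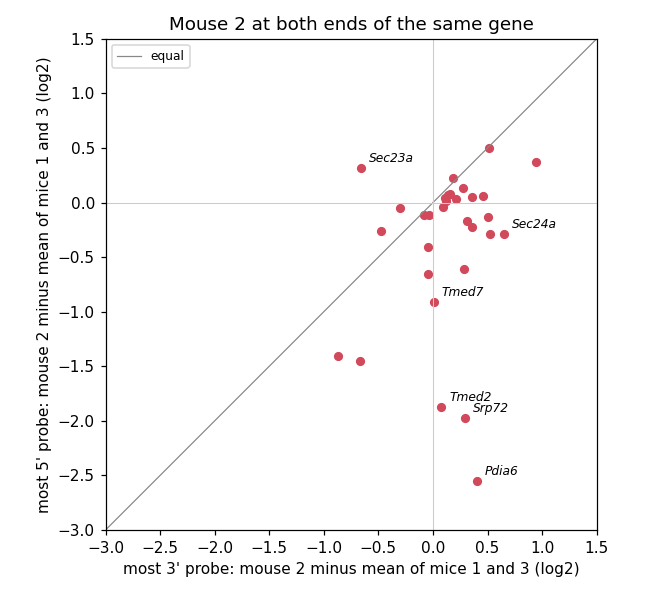
Log2 ratio of mouse 2 minus the mean of mice 1 and 3 at the most 3′ probe (horizontal axis) and at the most 5′ probe (vertical axis) of each of 31 member genes, with the line of equal values; genes whose probes differ by at least 0.9 are named. Points lie below the line in 27 genes, farthest in *Pdia6*, *Srp72* and *Tmed2*.

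Different probes of 1 gene often did not give 1 answer. Of 32 member genes with several tested probes, 16 had ratios of both signs, and of 39 genes with several probes, 28 had them in different classes. The same counts were not made over all genes of the array, so whether members differ from them in this was not tested. Those of *Ssr4* (0.40 and 0.36), *Spcs2* (-0.40 and -0.34) and *Sec23b* (0.65 and 0.63) lay close together.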

How the data were processed

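Members and gene lists were chosen with earlier results of these data known. The authors made the deposited scanner tables with Agilent Feature Extraction 9.5.3.1, which hold the intensity of each spot and of its local background on a linear scale in both channels and a log10 ratio of red over green, which per the file headers rests on processed intensities. A deposited table of the series holds log2 values that the authors normalized between arrays by Aquantile with limma in R 2.14.0. Against the scanner values these log2 values ranked as the CPE channel does, and they served as an alternative for the classes.

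Files were analysed with R 4.3.3 and limma 3.58.1. Spots of a probe were averaged after control spots and outliers had been removed. For the ratios, intensities were corrected by normexp with an offset of 50 and normalized by loess within each array, and limma was fitted with an intercept alone over all tested probes. Levels of each channel are those after loess and Aquantile. Classes used the mean red intensity without background correction, after Aquantile, averaged over 3 mice. The number of arrays limits the precision. A gene is given by its brightest probe over both channels, with other tested probes of named genes where they differ in sign or call. Named in every mouse were, for each role, the called genes with the largest and lowest ratios, the gene nearest 0, all KDEL receptors and Sec61 subunits, the 5 genes with the largest SD, and the partners with the 3 largest and lowest called ratios. Genes further named were chosen after their values were seen. The fit was tested on simulated data. Probe positions come from the scanner tables (mm8), no annotation of which was used, so exons are not given, and promoter positions are GRCm38.p6. Of the 128 member probes, 98 were matched to the RefSeq gene table by accession.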

Additional observations from a re-analysis of the deposited data

How the results depend on the processing

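Each ratio pairs the CPE with the reference on the same array. The 3 arrays form 1 group, so no other pairing was possible. In the 12 alternative settings of the ratio no member probe called after loess changed its direction. The same held for the brightest probes of the partners *Calr*, *Hsp90b1*, *Hspa5* and *Trappc1*. The other called partner probes were not followed over all of these settings. Median centring in place of loess moved most: 34 member probes were called higher against 5 with loess, partner genes higher numbered 28 against 10 and lower 0 against 1, the median ratio of the members was 0.54 against 0.07, and their median SD between mice 0.70 against 0.22. Over all probes 3745 were then higher, against 1833, and 1842 lower, against 2629. A test against a 2-fold difference (treat) left 2 member probes higher, *Pdia3* and *Pdia4*, and 1 lower, *Pdia5*, with 3 partners higher and 0 lower, and 455 and 958 of all probes. With the scanner's own ratios 2846 and 3910 of all probes were called, and 6 and 4 member probes. Without 1 mouse in turn, member probes called higher numbered 4 to 7 and lower 3 to 5, partners higher 10 to 12 and lower 1 to 2, and the median ratio of the members ran from 0.0198 without mouse 1 to 0.142 without mouse 3. Of the other settings, some changed single calls near 2-fold, given with those genes. High member probes numbered 29 in place of 50 when only probes well above background in the CPE on all arrays were ranked, and since dim probes then no longer fill the lower ranks this follows from the ranking. The cause of the other shifts was not tested. The signal over background of mouse 2 limits what can be said of dim probes.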
